A study of Mus musculus with 4 samples.

Results

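Conventional dendritic cells that have taken up antigen in a tissue mature, switch on the chemokine receptor Ccr7 and follow its ligands through the lymph to the draining node, where they present antigen to T cells. In tumors this mature state is known for fascin (Fscn1, an actin-bundling protein of dendrites), the chemokine Ccl22, the interleukin-4-induced amino acid oxidase Il4i1, costimulatory ligands and the checkpoint ligand Cd274. Migratory Ccr7+ dendritic cells were picked from single-cell RNA data of mouse tumors by a gate on raw unique molecular identifiers (UMIs, each a counted RNA molecule). A barcode entered the gate with at least 1 Ccr7 UMI, at least 3 UMIs over Fscn1, Ccl22, Il4i1 and Cacnb3 (a calcium channel subunit), at least 3 over the MHC class II genes H2-Aa and H2-Ab1, at most 5 over the macrophage genes C1qa, C1qb and C1qc and at most 1 over Cd3d, Cd3e and Cd3g. The quality filter asked for 300 or more genes, 500 or more UMIs and no more than 20% of UMIs from mitochondrial genes. Of the 56088 barcodes left, 401 passed the gate and are called members. Since these UMI counts chose the members, their own levels are descriptions.

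The study set wild-type (WT) beside Lrrc25-/- host mice. Lrrc25 encodes a leucine-rich repeat membrane protein of myeloid cells. B16F10 (a mouse melanoma line) was grown for 14 days and MC38 (a mouse colon carcinoma line) for 26 days, the treatment label read none, and the sources used here state neither the age, sex and strain of the mice nor the kind of Lrrc25 allele. Each of the 4 groups was 1 library made from a pool of 3 mice with 100 mm3 of each tumor, in which bead-isolated CD45+ cells and the unsorted suspension were mixed at 5 to 1, so shares of cells also reflect that mixture. With 1 pool per group, library and group cannot be told apart within a tumor model, and intervals on counts and shares cover counting error only. The tumor models also differed in day, and Xist, a transcript of female cells, had 0 and 1 UMIs in the members of the B16F10 pools and 147 and 257 in those of the MC38 pools, so tumor, day and host sex cannot be told apart in any difference between models.

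Libraries held 105338548 to 138841749 UMIs over 10490 to 18545 barcodes. The members numbered 63 of 9799 filtered barcodes in WT B16F10, 162 of 12299 in Lrrc25-/- B16F10, 75 of 17286 in WT MC38 and 101 of 16704 in Lrrc25-/- MC38. Pairs of libraries shared 96 to 247 barcode sequences, none of them among the members of both.

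The label held for most of the members and was in doubt for the others. Of the 401 members, 90 carried at least 15 UMIs of melanoma, epithelial, fibroblast or endothelial marker genes, a threshold chosen after the values were seen. The counts fell into separate ranges, with 306 members under 10 such UMIs, 5 at 10 to 14, 3 at 15 to 20 and 87 over 20. The members with tumor RNA numbered 23, 38, 8 and 21 in the order WT B16F10, Lrrc25-/- B16F10, WT MC38 and Lrrc25-/- MC38, which is the order of libraries throughout. They were deep, with medians of 30326, 38947, 25374 and 26465 UMIs, their median Ccr7 count was 1 UMI in every library, and their median sum of H2-Aa and H2-Ab1 was 3 to 7 UMIs. They held 77.1%, 63.1%, 36.6% and 54.4% of all UMIs summed over the members. At the edge of the gate, 76 of the 90 members with exactly 1 Ccr7 UMI had tumor RNA, and of 1198 barcodes just outside it, with 0 Ccr7 UMIs and every other term met, 1103 had. The threshold did not part the members fully. In WT B16F10, 1 member with tumor RNA had 16 Ccr7 and 27 Fscn1 UMIs. Members without tumor RNA that had exactly 1 Ccr7 UMI numbered 2, 3, 5 and 4. A doublet caller marked 8 of the 90 members with tumor RNA, and what the others are was not tested.

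**Figure D1:**
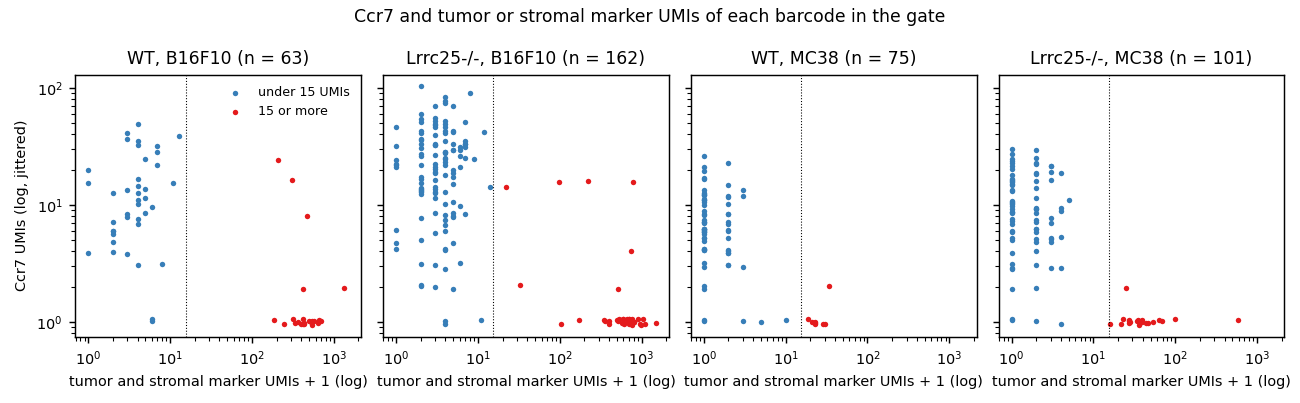
Each point is a member, placed by its UMIs over the tumor and stromal marker lists plus 1 (x axis, log) and its Ccr7 UMIs (y axis, log, jittered), in 1 panel per library, with the dotted line at the threshold of 15 marker UMIs. The 90 members right of the line sit mostly at 1 Ccr7 UMI, and the 311 left of it spread from 1 Ccr7 UMI upwards.

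The 311 members without tumor RNA (40, 124, 67 and 80) are the set closest to the label, and gene levels below are theirs unless all members are named. Their levels are given as CPM, the gene's UMIs scaled to a total of 1000000 UMIs over the members of a library, a scale that compares a gene between groups and not genes of different length. Ccr7 stood at 2841, 3907, 1456 and 1739 CPM, against 98.6, 71.6, 42.7 and 36.1 CPM in the members with tumor RNA. Median Ccr7 was 11, 21.5, 6 and 9 UMIs a barcode, with highest values of 52, 109, 26 and 29. Fscn1 stood at 1399, 1472, 634 and 681 CPM and Ccl22 at 1339, 1392, 2005 and 1721 CPM. Both B16F10 pools were higher than both MC38 pools in Ccr7 and Fscn1 and lower in Ccl22. Cd74, the invariant chain of MHC class II, reached 17036, 16037, 10606 and 12613 CPM.

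T cell markers summed to 8.24 to 129.8 CPM, B cell markers to 9.79 to 117 CPM and NK cell markers to 25.5 to 148 CPM. The plasmacytoid dendritic cell list summed to 716, 224, 467 and 409 CPM, including Bst2, an interferon-induced membrane protein (295, 156, 280.1 and 239 CPM), and the transcription factor Tcf4 (70.2, 60.6, 179 and 168 CPM). Its defining marker Siglech was at 0 in 3 libraries and had 13 UMIs in 3 barcodes of WT B16F10. Melanoma markers summed to 548 and 357 CPM in the B16F10 pools and to 33 and 47 CPM in the MC38 pools, where Mlana, Pmel, Tyrp1 and Dct were at 0. Macrophage markers summed to 847, 618, 409 and 744 CPM and monocyte markers to 374, 313, 294 and 437 CPM. Neutrophil markers summed to 117, 458, 126 and 76.4 CPM. The melanoma, macrophage, monocyte and neutrophil sums differed between the WT and Lrrc25-/- pools in opposite directions in B16F10 and MC38. The plasmacytoid sum was lower in the Lrrc25-/- pool of both models.

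Beyond the gate, the members shared a set of genes with high levels against other MHC class II-positive barcodes, which met the same limits on C1q, Cd3 and MHC class II but were not members (914, 1659, 2331 and 3717 barcodes). Unlike the members shown, these barcodes kept those with tumor RNA, 392, 489, 375 and 824 of them, here and below. The part of that RNA in their levels and in the ratios was not tested. The comparison is a description, since the gate chose both sets, and genes of at least 100 CPM in the members of every library were ranked by the ratio, with 10 CPM added to both sides, in the library where it was lowest. The added 10 CPM sets part of that order, since it lowers the ratio of genes near 0 in the other barcodes. Ccl17, a chemokine that like Ccl22 attracts Ccr4-bearing T cells, led with 2705, 1220, 2757 and 1627 CPM against 29.2, 11.5, 72.3 and 21.9 CPM. Il12b, the p40 subunit shared by IL-12 and IL-23, had 234, 471, 390 and 707 CPM against 0.145 to 4.39 CPM. Il12b was carried by a minority of members, 12.5%, 30.6%, 26.9% and 37.5% of barcodes with a UMI.

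Next in rank were Tbc1d4, a Rab GTPase-activating protein (529 to 1293 CPM against 8.43 to 47.2), the serpins Serpinb6b (497 to 716 against 5.01 to 19) and Serpinb9, an inhibitor of granzyme B (299.5 to 591 against 7.26 to 26.6), and Stat4, which signals below the IL-12 receptor (201 to 807 against 4.87 to 29.4). Ccl5, a chemokine for T cells and monocytes, had 2480 to 6876 CPM against 180.4 to 254. The remaining leaders were Mmp25, a membrane-anchored metalloproteinase, Samsn1, an adaptor protein, Ramp3, a receptor activity-modifying protein, Bcl2l14, Lsp1, an actin-binding protein of leukocytes, Cd200, a ligand that restrains myeloid cells, Tmem123 and Ly75 (DEC-205), an endocytic receptor of dendritic cells. Each of the 15 stood higher in the members in every library, by ratios of at least 9.06 on that scale.

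**Figure D2:**
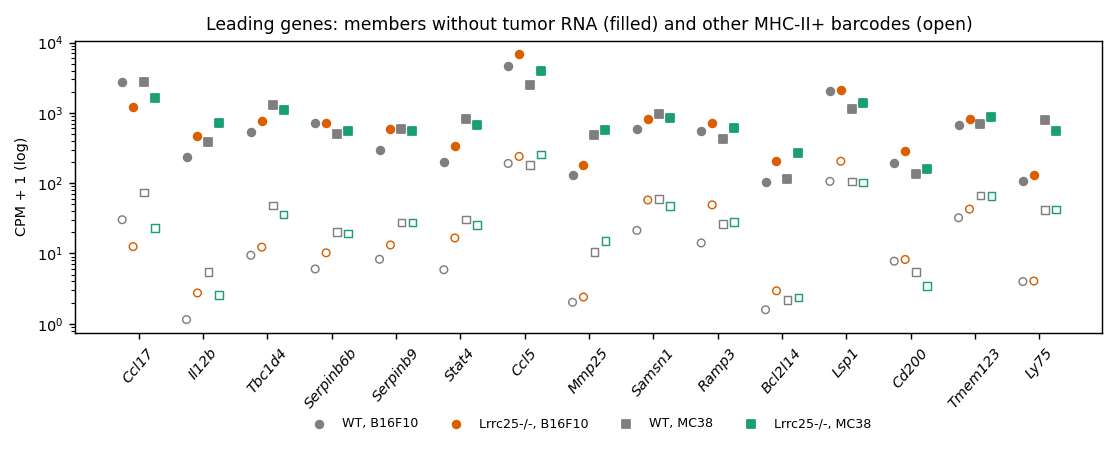
CPM plus 1 (y axis, log) of the 15 leading genes in members without tumor RNA (filled) and in other MHC-II+ barcodes (open, those with tumor RNA kept), by library. In each gene the 4 filled points lie above the 4 open ones, for Ccl17 at 1220 to 2757 CPM against 11.5 to 72.3.

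Conventional dendritic cells named by their own markers were the nearest other set, taken from the non-member barcodes. In type 1-like barcodes (at least 2 UMIs of Xcr1 and Clec9a; 9, 36, 12 and 28 barcodes) Ccr7 was at 76 to 196 CPM and in type 2-like barcodes (at least 2 UMIs of Cd209a and Flt3; 34, 127, 18 and 27) at 272 to 614 CPM, and Fscn1 was at 0 CPM in the type 1-like set of every library. Ccl17 was at 5.48 to 242 CPM in the first set and at 135 to 1872 CPM in the second, the highest value being that of WT MC38. Other leading genes varied in these sets. Ramp3 was at 327 to 387 CPM in the second set, against 426 to 720.3 in members. Lsp1 was at 565 to 1333 CPM over both sets, against 1140 to 2099. Cd200 was at 0 to 20.7 CPM over both, against 132 to 286. Marks of type 1 origin were found in 7.5% to 23.9% of the members and marks of type 2 origin in 35% to 70.1%. A UMI of a type 1 gene (Xcr1, Clec9a, Cadm1, Itgae or Tlr3) was found in 3, 19, 16 and 13 members and that of a type 2 gene (Cd209a, Clec10a, Mgl2, Sirpa or Itgam) in 14, 59, 47 and 54, while 23, 54, 17 and 18 members had neither. Both kinds stood together in 0, 8, 13 and 5 members. Flt3, a growth factor receptor of dendritic cells, was at 70.2, 122, 151 and 176 CPM.

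Among the members without tumor RNA, fascin and MHC class II, both used by the gate, ran against each other. Fscn1 had a UMI in 33 of 40, 96 of 124, 36 of 67 and 37 of 80 members, and the others had entered the gate through Ccl22, Il4i1 or Cacnb3. Median H2-Aa plus H2-Ab1 was 41, 29, 13 and 16 UMIs in members with a Fscn1 UMI and 168, 256, 73 and 107 UMIs in those without. Members without Fscn1 were the deeper ones in every library (medians of 6305, 9008, 5040 and 6713 UMIs against 3820, 5839, 4534 and 6612), a smaller ratio than that of the MHC class II medians. Across members, Spearman's rho between Fscn1 and MHC class II UMIs was -0.42, -0.52, -0.73 and -0.65 over 40, 124, 67 and 80 barcodes, which share a library and lie on counts that also rise with depth. The split was made after the values were seen and is a description.

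**Figure D3:**
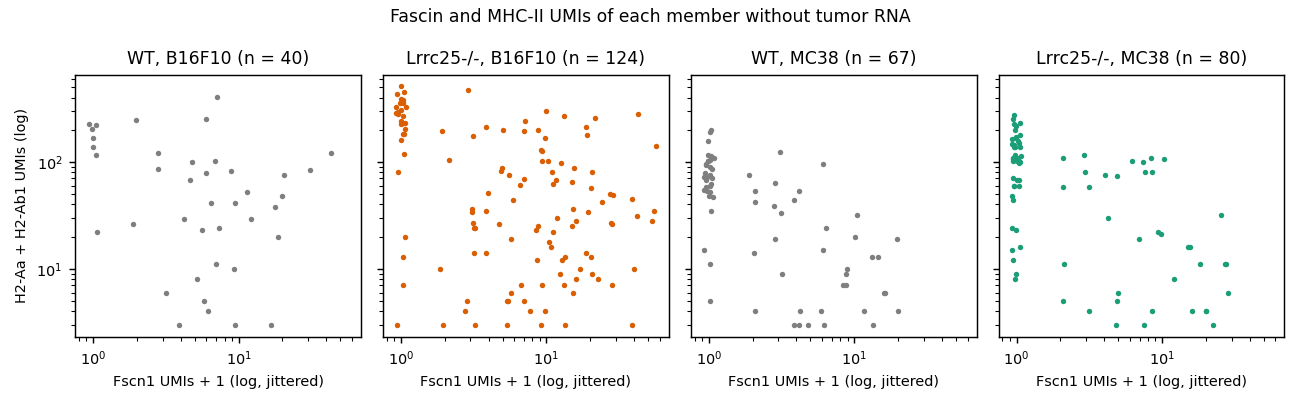
Each point is a member without tumor RNA, placed by Fscn1 UMIs plus 1 (x axis, log, jittered) and by H2-Aa plus H2-Ab1 UMIs (y axis, log), in 1 panel per library. Members at 0 Fscn1 UMIs mostly have high MHC class II counts, with medians of 73 to 256 UMIs, and counts fall to the gate's limit of 3 among those with Fscn1.

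Of 2326 genes compared between these states, 109 were at least 1.5-fold higher with Fscn1 in all 4 libraries and 81 at least 1.5-fold lower. Gate genes, genes not to be named and genes of few UMIs were left out. Both sides of each ratio had a constant CPM added, which shrinks the ratios of low genes. In WT B16F10 the members without Fscn1 were only 7 barcodes. Higher with Fscn1 were Epsti1 (478, 537, 730.2 and 952 CPM against 21.6, 44.2, 129.7 and 139), the fatty acid-binding protein Fabp5 (4836, 4669, 1373 and 1594 CPM against 604, 1036, 195 and 503), Ly75, Bcl2l14 and the cytokine signalling inhibitor Socs2. Lower with Fscn1 were, among others, the lectin Mgl2 (59.8, 8.69, 129 and 67.4 CPM against 905, 718, 578 and 385), the lectin receptor Clec4n, the Fc receptor Fcgr2b and the lipopolysaccharide co-receptor Cd14 (418, 316, 134 and 350.3 CPM against 5518, 2075, 696 and 1024). Il1b, a proinflammatory cytokine, was lower with Fscn1 as well, at 1046, 1178, 2093 and 1886 CPM against 7739, 3733, 4167 and 5061. Cd14, Fcgr2b and Il1b are also macrophage genes, and the part of RNA from other cells in their levels was not tested.

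Members made up a larger share of the Lrrc25-/- B16F10 pool than of the WT pool. Among barcodes with a UMI of Ptprc (CD45), members were 17 of 3515 in WT B16F10, 0.484% (exact binomial 95% interval 0.282 to 0.773), and 67 of 5736 in Lrrc25-/- B16F10, 1.17% (0.906 to 1.48). The ratio was 2.42 (1.4 to 4.39, exact conditional interval), and 1.66 (0.633 to 5.12) with every barcode thinned to 2000 UMIs, an interval that holds 1. In MC38 they were 46 of 12042, 0.382% (0.28 to 0.509), and 74 of 12714, 0.582% (0.457 to 0.73), a ratio of 1.52 (1.04 to 2.25). Thinned to 2000 UMIs, the MC38 ratio was 1.2 (0.593 to 2.48), an interval that also holds 1. These shares leave out many members, since only 17 of 63, 67 of 162, 46 of 75 and 74 of 101 had a Ptprc UMI. Over all filtered barcodes the ratios were 2.05 (1.52 to 2.79) and 1.39 (1.02 to 1.9). Without tumor RNA in the members they were 2.47 (1.72 to 3.62) and 1.24 (0.882 to 1.74). Among barcodes with a Ptprc UMI, the ratios without the members with tumor RNA were 2.45 (1.35 to 4.77) and 1.37 (0.921 to 2.05), the second interval holding 1. Other MHC class II-positive barcodes also took a larger share in both Lrrc25-/- pools, and with all MHC class II-positive barcodes as the denominator the ratios were 1.38 (1.03 to 1.88) and 0.849 (0.623 to 1.16). Without tumor RNA in members and denominator they were 1.35 (0.936 to 1.97) and 0.812 (0.58 to 1.14), and both intervals held 1. The MC38 direction was also lost with a stricter gate of at least 2 Ccr7 and 6 marker UMIs with at most 2 of C1q and 0 of Cd3, where the ratio was 0.975. Members in a pool are not replicates, so these ratios compare libraries of 3 pooled mice and no test of genotype over the 4 libraries was made on them.

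**Figure D4:**
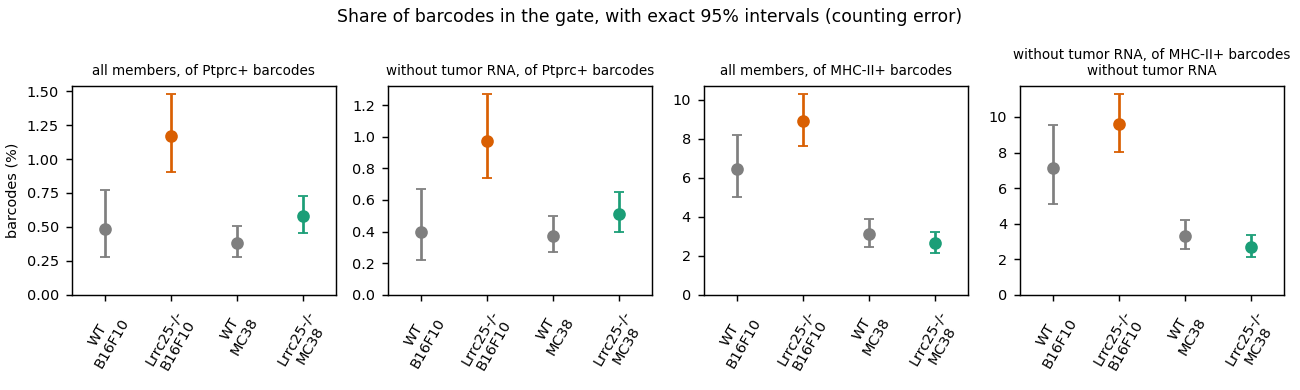
Members as a percentage of barcodes (y axis) in each library (x axis), for 2 denominators, with and without the members that carried tumor RNA; bars are exact 95% intervals of counting error. In B16F10 the Lrrc25-/- point lies above the WT point in each panel (1.17% against 0.484% in the first), and in MC38 the order turns over when the denominator is MHC-II+ barcodes (2.65% against 3.12%).

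Lrrc25 itself was sparse in WT members and absent from those of the Lrrc25-/- pools. All members together held 11 Lrrc25 UMIs in 8 barcodes of WT B16F10, 0 in Lrrc25-/- B16F10, 7 in 7 barcodes of WT MC38 and 0 in Lrrc25-/- MC38. Without tumor RNA the WT levels were 14 CPM (2.9 to 41, exact Poisson interval) and 19.2 CPM (7.73 to 39.6), while C1q-high barcodes, which are macrophage-rich with at least 10 C1q UMIs, stood at 141 and 89.8 CPM in the WT pools and at 4.51 and 1.97 CPM in the Lrrc25-/- pools. The gene was thus lower in WT members than in macrophage-rich barcodes, and the 0 UMIs of the Lrrc25-/- pools allow up to 4.47 and 7.22 CPM.

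Across both tumor models, almost no gene passed a test of genotype. With 1 library a group, the error of that test is the disagreement between models, so an effect unlike in the 2 models counts as error. With edgeR's quasi-likelihood test on the summed counts of all members, with genotype and tumor model as terms and 1 residual degree of freedom, 2 of 8578 genes passed a Benjamini-Hochberg adjusted p of 0.05, 1 higher in Lrrc25-/- (0.0117% of those tested) and 1 lower (0.0117%), and 147 had an unadjusted p under 0.05. Both calls rested on few barcodes. Gzmc, a granzyme of cytotoxic lymphocytes, was higher (log2 difference 6.23, SE 0.76, adjusted p 0.00342) with 3, 1597, 3 and 62 UMIs, and 99.8% and 83.9% of the UMIs in the Lrrc25-/- pools lay in 1 member each. Fabp4, a fatty acid-binding protein, was lower (log2 -5.20, SE 0.685, adjusted p 0.00453) with 511, 27, 1 and 1 UMIs, and 94.3% of those in WT B16F10 lay in 1 member. In members without tumor RNA, the WT and Lrrc25-/- B16F10 pools held 8 and 20 Fabp4 UMIs. Lrrc25 had a log2 difference of -6.89 and an adjusted p of 0.0996. No gene of the dendritic cell lists passed.

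The genotype difference in members was also compared with that in C1q-high barcodes of the same libraries, in 1 edgeR model with an interaction term over 15168 genes. It passed for 17 genes whose difference was higher in members (0.112%) and 41 lower (0.27%). In 18 of these 58 genes 1 member held at least 50% of all member UMIs. Gzmc and Fabp4 had the lowest adjusted p in each direction. The higher genes also included Gzme, Ccl24 and Gzmb, whose 137, 54 and 337 UMIs in Lrrc25-/- B16F10 came to 100.0%, 94.4% and 98.5% from 1 member each, and the lower ones Lox, a collagen cross-linking enzyme, and Rarres2 (chemerin), whose 132 and 580 UMIs in WT B16F10 lay in 3 members each. All of these Lox and Rarres2 UMIs lay in members with tumor RNA, and WT B16F10 members without tumor RNA held 0 of either. Of the higher genes, the neutrophil gene S100a9 was spread more widely, with 2, 184, 1 and 1 UMIs, those of Lrrc25-/- B16F10 in 20 members. With the stricter gate no gene passed, and 174 had an unadjusted p under 0.05.

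Within each tumor model there is 1 pool a genotype, so differences were read by size and without a test. A gene was counted as measured with at least 50 CPM in either pool and at least 50 UMIs in both together, and as higher or lower when its log2 ratio with a pseudocount of 1 CPM reached 1. Over all members in B16F10, 4.83% of 2504 genes were higher in Lrrc25-/- and 3.15% lower, and in MC38 1.96% of 3678 higher and 1.66% lower. Over the members without tumor RNA, 7.27% of 2062 genes were higher and 1.5% lower in B16F10, and 2.22% of 2749 higher and 1.49% lower in MC38. The B16F10 sums were unequal, 213669 UMIs in WT members against 824646. With a minimum of 234 CPM in either pool, where 50 UMIs fall in the smaller sum, 24 of 564 genes were higher and 10 lower. Scaling by trimmed means (TMM) raised the median log2 ratio of measured genes in B16F10 from 0.08 to 0.40 and the split from 150 higher and 31 lower to 327 and 19, and gave -0.82 for Ccl17, named as lower below. With the barcode that held most UMIs of a gene left out of each pool, 146 of the 150 higher and 16 of the 31 lower calls in B16F10 stood, and 56 of 61 and 30 of 41 in MC38. That check was uneven in B16F10, since 1 barcode weighs more among 40 WT members than among 124. The log2 ratio of S100a9 rose from 5.25 to 7.29 as its only WT UMI was left out. Gzmc stood with 99.9% of its Lrrc25-/- UMIs in 1 member. A call that stood is therefore not shown to be free of single barcodes.

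Among the transcription factors, 4 of 21 measured were higher in Lrrc25-/- B16F10 and none lower, beside 7.27% and 1.5% of all genes. The median log2 ratio was 0.46 beside 0.08 over all genes. The minimum of 50 UMIs is met more easily through the larger Lrrc25-/- sum, which favours genes high there. The 4 were Etv3, Rela, Nr4a3 and Relb, the last also on the dendritic cell identity list. Relb and Rela are NF-kappaB subunits, Relb that of the alternative pathway through which dendritic cells mature. Relb rose from 39 UMIs (183 CPM) to 315 UMIs (382 CPM), a ratio with an exact interval of 1.5 to 3. It was found in 47.5% and 84.7% of members, and with every barcode thinned to 2000 UMIs in 33.3% (19.1 to 50.2) of 39 and 55.8% (46.1 to 65.1) of 113 members, beside 10.4% and 16.8% of T cell-like barcodes, which are those with at least 2 Cd3 UMIs. The intervals of the members overlapped. Etv3, a repressor of the ETS family, stood at 88.9 and 247 CPM in 13 and 92 members, and Nr4a3, an orphan nuclear receptor needed for Ccr7-dependent migration in mice, at 178 and 418 CPM. Rela stood at 28.1 and 82.5 CPM on 6 and 68 UMIs, under the minimum of 234 CPM given above. In MC38 none of the 21 passed in either direction (median -0.05 beside 0.04), with Relb at 483 and 464 CPM and Etv3 at 538 and 407 CPM. The levels of Etv3 and Relb in WT B16F10 were thus the low ones of the 4 libraries. No test of the difference between models was made. In the other MHC class II-positive barcodes of B16F10, Relb stood at 21.3 and 38.8 CPM, Etv3 at 9.37 and 25.1, Nr4a3 at 40 and 58.6 and Rela at 38.4 and 37.1. Tumor RNA was present in 392 of 914 and 489 of 1659 of those barcodes, an unequal share whose part in these levels was not tested.

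Of 12 NF-kappaB feedback genes in B16F10 Tnfaip2 was higher (65.5 and 137 CPM) and none lower, with a median of 0.17, a share near that of all genes, and Nfkbia, the inhibitor of the canonical pathway, was at 3005 and 2996 CPM. Map3k14, the kinase that activates the alternative NF-kappaB pathway, stood at 103 and 221 CPM in members and at 8.43 and 28.2 CPM in the other MHC class II-positive barcodes. Csf2rb, the shared beta chain of the receptors for GM-CSF, IL-3 and IL-5, stood at 243 and 610 CPM, found in 17 of 40 and 106 of 124 members, and at 48.3 and 155 CPM in the other barcodes. In MC38 no feedback gene of 12 passed (median 0.05).

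The chemokines split. In B16F10, 2 of 12 measured were higher and 5 lower (median 0.05), and in MC38 3 of 12 were higher and none lower (median 0.71 beside 0.04 over all genes). Ccl17 fell from 2705 to 1220 CPM in B16F10 (log2 -1.15, ratio interval 0.407 to 0.5) and stood at 2757 and 1627 CPM in MC38 (log2 -0.76, under the size rule). Ccl22 did not follow, with log2 ratios of 0.06 and -0.22. With the stricter gate the B16F10 log2 ratio of Ccl17 was -0.26. Ccl4, a chemokine of activated immune cells, was lower in Lrrc25-/- B16F10 (1203 and 301 CPM) and higher in Lrrc25-/- MC38 (33 and 141 CPM), in 22, 54, 3 and 11 members. Ccl2 (477 and 169 CPM), Cxcl1 (1161 and 223 CPM) and Cxcl10 (552 and 176 CPM) were lower in B16F10, but 69.6%, 85.5% and 62.7% of their WT UMIs lay in 1 member.

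Ccl6, a chemokine of myeloid cells, was higher in both models, at 149.8 and 435 CPM in B16F10 and 126 and 256 CPM in MC38, and with Gzmc was 1 of 2 genes of 1701 measured in both models to be so, while none was lower in both and 9 were opposite. Ccl6 stood at 1295 and 1847 CPM in the C1q-high barcodes of B16F10, above its level in members, and with the stricter gate it turned to -0.39 in MC38. Cxcl2, a neutrophil attractant, was higher in B16F10 (927 and 1951 CPM), and turned to -0.45 with the stricter gate. It too was higher in the C1q-high barcodes (4619 and 8736 CPM).

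**Figure D5:**
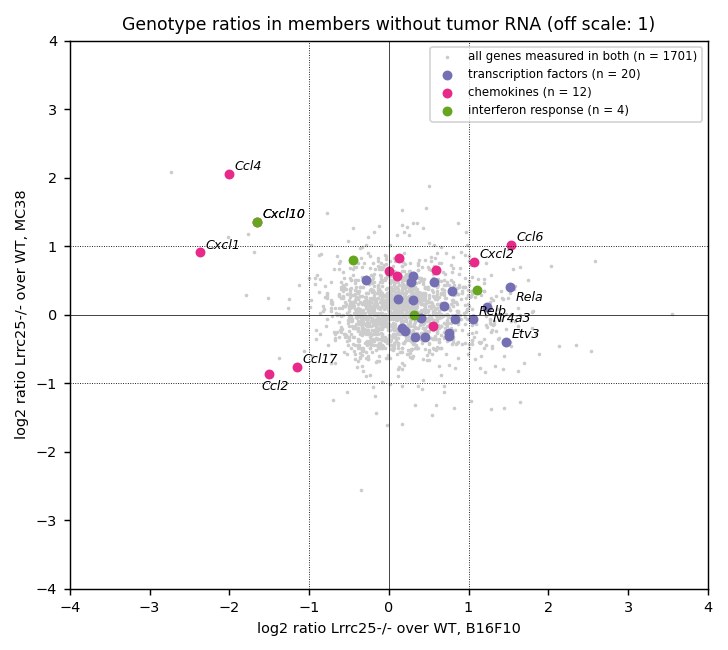
Log2 ratios of Lrrc25-/- over WT in B16F10 (x axis) and MC38 (y axis) for 1701 genes measured in both, in members without tumor RNA; dotted lines mark a ratio of 2 or its inverse, and coloured points are 20 transcription factors, 12 chemokines and 4 interferon response genes, Cxcl10 being on 2 lists. Etv3, Rela, Nr4a3 and Relb lie at 1.06 to 1.52 in B16F10 and at -0.40 to 0.41 in MC38, and Ccl4 and Cxcl10 lie at upper left, lower in B16F10 and higher in MC38, while Gzmc is off the scale.

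Of the cytokines, Il12b and Il1rn, the natural antagonist of the IL-1 receptor, were higher and Tnf lower of 6 measured in B16F10, with 53.1% of the WT Tnf UMIs in 1 member and no call once the top barcode of each pool was left out, and none of 6 passed in MC38, where all 6 log2 ratios were above 0 (median 0.43). Il12b stood at 50, 388, 142 and 361 UMIs, that is 234 and 471 CPM in B16F10 and 390 and 707 CPM in MC38 (log2 1.00 and 0.86). Thinned to 2000 UMIs, 10.3% (2.87 to 24.2), 26.5% (18.7 to 35.7), 21.2% (12.1 to 33) and 32.9% (22.7 to 44.4) of members had an Il12b UMI, beside 0.356% to 1.82% of T cell-like barcodes, which should lack it. The WT and Lrrc25-/- intervals overlapped in both models. Il1r2, the decoy receptor of IL-1, stood at 407 and 994 CPM in B16F10 and at 59.9 and 209 CPM in the other MHC class II-positive barcodes.

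Of 9 costimulation genes measured in B16F10 Tnfsf9 (4-1BB ligand) alone passed, being lower at 239 and 88.5 CPM, and none of 6 passed in MC38. Cd86 stood at 295, 439, 994 and 938 CPM, Cd80 at 159, 215, 373 and 415 CPM and Cd40 at 220, 158, 96.1 and 139 CPM. Of 10 regulatory and checkpoint genes, Ebi3, a subunit of IL-27 and IL-35 (183 and 76.4 CPM, log2 -1.25), and the death receptor Fas (log2 -1.09 on 19 and 34 UMIs, a call lost with the top barcode of each pool left out) were lower in B16F10. Of 8 in MC38 Socs3, an inhibitor of cytokine signalling, was higher (54.9 and 141 CPM). Cd274 (PD-L1) stood at 183, 299.5, 684 and 1028 CPM, log2 ratios of 0.71 and 0.59, both under the size rule. Thinned to 2000 UMIs, Cd274 was found in 20.5% (9.3 to 36.5) and 44.2% (34.9 to 53.9) of members in B16F10 and in 68.2% (55.6 to 79.1) and 75.9% (65 to 84.9) in MC38, beside 11.1% to 20% of T cell-like barcodes.

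Few antigen presentation and survival genes passed the size rule. Of 15 MHC class I and processing genes in B16F10 only H2-T23, a nonclassical class I gene, passed (60.8 and 127 CPM), and of 16 in MC38 none (median 0.29). None of 9 and 10 MHC class II genes measured passed in B16F10 and MC38 (medians 0.08 and 0.29). Of 8 survival genes, Bcl2l14, a Bcl-2 family member, was higher in MC38 (115 and 268 CPM, log2 1.21) and stood at 103 and 203 CPM in B16F10 (log2 0.97). Of 18 and 17 migration and cytoskeleton genes measured none passed. Of 10 glycolysis and hypoxia genes in B16F10 none passed, though the median was -0.46 beside 0.08, with Ldha at 819 and 560.2 CPM.

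In MC38 the higher genes included interferon response genes together with genes that macrophages express. Of 8 interferon response genes measured, 3 passed upwards and 0 downwards, the median being 0.76 beside 0.04. These were Cxcl10 (74.1 and 192 CPM, 74.1% of the WT UMIs in 1 member), Stat2, which carries type I interferon signals (35.7 and 108 CPM), and Rsad2, the antiviral protein viperin (35.7 and 99.9 CPM). Isg15, a ubiquitin-like protein, stood at 236 and 411 CPM, under the size rule. The immediate early gene Fos was higher (121 and 448 CPM), Nos2, the inducible nitric oxide synthase, rested on 7 and 51 UMIs, and complement C3 on 11 and 71. Apoe (82.4 and 231 CPM) and Lyz2 (346 and 879 CPM) were higher as well, and are macrophage genes at 3640 to 6271 CPM in the C1q-high barcodes of MC38. Csf1r, the receptor of a macrophage growth factor (log2 1.02), and the cholesterol exporter Abca1 (log2 1.22) were higher too. The 10 macrophage markers summed to 409 CPM in WT and 744 CPM in Lrrc25-/- members of MC38, and their part in the higher genes was not tested.

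Lower in Lrrc25-/- MC38 were Il2ra (CD25), found on mature dendritic cells (168 and 64.6 CPM, 30 of 67 and 17 of 80 members), Plet1, a surface protein of migratory type 2 cells of mouse gut (332 and 139 CPM), the transcription factor Zeb1 (489 and 237 CPM) and Idi1 of sterol synthesis (121 and 39.2 CPM). In B16F10 the neutrophil genes S100a8 (1 and 163 UMIs) and S100a9 (1 and 177 UMIs) were higher, in 13 and 14 of 124 members, and the summed neutrophil markers rose with them from 117 to 458 CPM. Their part in the other higher genes was not tested.

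Plcb1, a phospholipase C, showed the widest gap of B16F10 apart from genes that 1 member carried. It had 226 UMIs in 23 of 40 WT members (1058 CPM) and 6 UMIs in 6 of 124 Lrrc25-/- members (7.28 CPM), a log2 ratio of -7.00. The gap was not particular to members, since C1q-high barcodes stood at 688 and 13.5 CPM, and the interaction between them had a log2 of 0.36 and an adjusted p of 1 in edgeR. In MC38 the members held 8 and 23 UMIs (22 and 45 CPM), so the high level was seen in WT B16F10 alone.

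Far more genes differed between the tumor models, which also differed in day and in Xist, than between genotypes. In the same edgeR model over all members, 2184 of 8578 genes were higher in MC38 (25.5%) and 2280 lower (26.6%), led by melanoma genes such as Pmel and Dct that the members with tumor RNA carried. The stricter gate left 26, 83, 47 and 45 members, of which 1, 2, 0 and 0 had tumor RNA. These few still brought melanoma RNA into its B16F10 sums. Pmel stood there at 647 and 568 CPM and Mlana at 998 and 214 CPM. In members without tumor RNA they stood at 183 and 102 CPM and at 46.8 and 40 CPM. The part of tumor RNA in genes that passed with both gates was not tested. With the stricter gate 912 of 3651 genes were higher (25%) and 886 lower (24.3%). A gene is named below where it passed with both gates in the same direction, which 832 genes did upwards and 713 downwards, and levels in each pool remain those of members without tumor RNA.

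On the transcription factor list 25 genes were tested, 23 of them also with the stricter gate. With both gates 8 were higher in MC38 and 3 lower, beside 832 and 713 of the 3651 genes tested with the stricter gate. Nfkb1, the p50 subunit of NF-kappaB, stood at 257 and 434 CPM in the B16F10 pools and 1845 and 1490 CPM in the MC38 pools (log2 2.30, SE 0.393, adjusted p 2.97e-04 over all members), and Rel at 379 and 675 against 1925 and 1844 CPM (log2 2.08, adjusted p 9.81e-04). The groups did not overlap. Etv6, Hivep1, Irf5, Etv3, Stat4 and Zeb2 were higher too, with log2 differences of 1.44 to 2.37. Id2, needed for dendritic cell development, was lower in MC38 (1708 and 1904 against 859.6 and 748 CPM, log2 -1.26, adjusted p 0.00763), as were Batf3 and Nr4a1. The median of the list was 0.96 over all members and 0.85 with the stricter gate, beside 0.01 and 0.12 over all genes.

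Of 13 regulatory and checkpoint genes tested, 3 were higher in MC38 and 1 lower, beside 25.5% and 26.6% of all genes, and with the stricter gate 3 of 11 were higher and 5 lower (median -0.26). Cd274 was at 183 and 299.5 CPM in B16F10 and 684 and 1028 in MC38 (log2 2.01, SE 0.386, adjusted p 6.64e-04; 1.28 with the stricter gate). Pdcd1lg2 (PD-L2) was at 84.2 and 109 against 242 and 249 CPM, and Havcr2 (TIM-3) and the costimulatory Cd86 rose likewise, while the other costimulation genes did not pass with both gates. Cxcl9, an interferon gamma-induced chemokine for T cells, was at 131 and 131 against 568 and 883 CPM (log2 2.39, adjusted p 1.60e-04). Of the interferon list 15 genes were tested, 7 of them also with the stricter gate. With both gates 3 were higher in MC38 (Gbp2, Gbp5 and Oasl1) and 1 lower (Cxcl10). Ccl4 was lower in MC38 as well, and Ccl4 and Cxcl10 were both most abundant in WT B16F10. Ly75, chosen here as a leading gene of members, stood at 108 and 131 against 785 and 546 CPM.

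Glycolysis genes went the other way. Of 14 tested, 7 were lower in MC38 with both gates (Gapdh, Aldoa, Pgk1, Ldha, Eno1, Pkm and the glucose transporter Slc2a1) and 1 higher (Hif1a). Gapdh stood at 3290 and 2710 against 947 and 1134 CPM (log2 -2.96 over all members and -2.46 with the stricter gate), while Hif1a, the hypoxia-induced transcription factor, stood at 70.2 and 46.1 against 321 and 419 CPM. The heat-shock genes Hspa1a (1123 and 685 against 35.7 and 35.2 CPM), Hspa1b and Dnajb1 were lower as well. B16F10 members without tumor RNA also held more melanoma marker RNA, as given above, and its part in these differences was not tested. No gene of the class I list passed with both gates, and H2-K1 and Ccl2 turned over between them (log2 0.79 and 1.48 over all members, -0.65 and -3.59 with the stricter gate).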

How the data were processed

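Per the labels' protocols, single cells were captured with a SeekOne 3' kit. The deposited values are raw counts, the UMIs of each gene in each barcode, and the submitters' processing notes name mm10. No aligner, counting tool or cell caller is named in the sources at hand. The members and the gene lists were chosen with earlier results of these data known. Depth per library is in the report.

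UMIs were summed over the members of each library. edgeR 4.0.16 (TMM factors, quasi-likelihood, filterByExpr) was the test across all genes, with genotype and tumor model as terms, tested on simulated data. DESeq2 1.42.0, other scalings and gates were alternatives. Within a tumor model genes were read by size. Scrublet (scanpy 1.11.5) scored doublets, and members with high scores were kept in the main values. Of listed genes those of highest CPM or past the size rule or test were named, and other genes by rank of ratio. Genes of ribosomes, mitochondria, antigen receptors and unnamed transcripts were counted, not named. The Fscn1 split and its genes, Map3k14, Csf2rb and Il1r2 were chosen after their values were seen.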

Additional observations from a re-analysis of the deposited data

Results flagged for a closer look

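In members without tumor RNA, 8 named genes were at least 2-fold higher in Lrrc25-/- in 1 tumor model and at least 2-fold lower in the other. The difference between models was not tested, since each group is 1 pool. Log2 ratios in B16F10 and MC38, with the second minus the first, were as follows. Ccl4 had -2.00 and 2.06, a difference of 4.06, on 257, 248, 12 and 72 UMIs. Cxcl3, a neutrophil attractant, had -2.73 and 2.08, a difference of 4.81, and 53% of its WT B16F10 UMIs and 50% of its Lrrc25-/- MC38 UMIs lay in 1 member. Cxcl10 had -1.65 and 1.36, a difference of 3.01. Naaa, a lysosomal amidase of type 1 dendritic cells, had -2.01 and 1.14, a difference of 3.15, with 66.7% of its WT B16F10 UMIs in 1 member. Slpi, a protease inhibitor, had -1.77 and 1.18, a difference of 2.95, with 94.3% of its WT B16F10 UMIs and 61.5% and 55.4% of those in the MC38 pools in 1 member each. The other direction was seen for Gsto1 (1.28 and -1.38, a difference of -2.67), the nuclear RNA Neat1 (1.64 and -1.28, a difference of -2.92) and Odc1 of polyamine synthesis (1.03 and -1.26, a difference of -2.29).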

How the results depend on the processing

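The edgeR count over genotype, 2 genes, was 64 with no low-count filter, 13 with the stricter gate, 1 without high doublet scores, 1 without tumor RNA and 0 with no tumor model term (8 at an unadjusted p under 0.05), and ran from 0 to 21 with each library left out, a fit that also had no tumor model term, with the lone sample of an arm assumed to vary like the others. The 21, lower in Lrrc25-/- in each case, came without WT MC38, so 2 choices changed at the same time, and the others had 125 to 202 genes at an unadjusted p under 0.05. The tumor model count, 4464, was 1819 with DESeq2, 1798 with the stricter gate and 2009 without tumor RNA. The 58 genes of the comparison with C1q-high barcodes were 3 with DESeq2, 33 with RLE factors, 32 with no filter, 32 without high doublet scores, 14 without tumor RNA and 0 with the stricter gate. Size-rule counts of 200 in B16F10 and 133 in MC38 were 889 and 572 with no CPM minimum, and 61 in MC38 with the stricter gate. Share ratios over MHC-II+ barcodes were 1.38 in B16F10 and 0.849 in MC38, and the stricter gate gave 0.975 in MC38. Of 59 gene ratios followed, none turned over with per-cell means. With the stricter gate Cxcl2 (-0.45), Naaa (0.99) and Slpi (1.42) turned over in B16F10 and Ccl6 (-0.39) and Slpi (-0.18) in MC38, and over all members Thbs1 (-0.44) in B16F10 and Neat1 (0.15) in MC38. The cause of these changes was not tested. No paired analysis was possible because replicate numbers pair nothing with 1 pool a group, beyond the tumor model term, which sets the genotypes side by side within a model in the main values. Alternatives that left out members with tumor RNA or changed the settings of named genes were chosen after seeing the data. Genes under about 50 UMIs in both pools, such as Lrrc25, could not be read by size.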
